A study of Homo sapiens with 9 samples.

Results

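Chromosomes 4, 13, 18 and X were examined in peak lists of chromatin isolation by RNA purification and sequencing (ChIRP-seq) from K562, an established human erythroleukemia cell line. The members are all peaks placed on these 4 chromosomes in hg19, which were 1238 of the 20698 peaks of 6 lists. Sheared K562 chromatin was captured with custom oligonucleotide probes against the lncRNA SRA (steroid receptor RNA activator) in 3 samples. Probes against the LacZ transcript, a bacterial sequence that human cells lack, were used in 3 control samples, and 3 input samples were not analysed here. The authors describe the ChIRP samples as biological triplicates, and the labels do not name separate cultures, so p-values measure only the spread between these samples, which may be technical.

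In ChIRP, biotinylated probes that pair with an RNA pull down this RNA together with the chromatin crosslinked to it, and the recovered DNA is sequenced. SRA was first described as a noncoding coactivator of nuclear receptors and is known to form complexes with the chromatin protein CTCF. Human chromosomes differ widely in gene content, with chromosomes 13 and 18 known as gene-poor, chromosome 13 having a short arm of ribosomal RNA genes and other repeats, and chromosome X being rich in L1 elements.

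SRA lists 1, 2 and 3 held 4982, 4946 and 5187 peaks, of which 318, 278 and 273 lay on chromosomes 4, 13, 18 and X. LacZ lists 1, 2 and 3 held 2676, 2617 and 290 peaks, of which 192, 166 and 11 lay there. LacZ list 3 stood apart from the other lists, with few peaks and a median width on these chromosomes of 902 bp, against 146 to 150 bp in the other 5 lists. Where a LacZ value leaves this list out, the lists used are named. Among SRA lists, all 535 pairs of overlapping peaks on these chromosomes were identical in start and end, and 212 of these pairs (39.6%) also had the same score. The SRA lists were therefore counted as 1 sample where a replicate error is needed, and their spread is not a replicate error. The peak lists give no numbers of reads, so sequencing depth is unknown here.

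The label gene-poor was checked with protein-coding genes of the RefSeq annotation of GRCh38.p14, counted per Mb of the GRCh38 chromosome. Chromosomes 13, 18 and 4 had the lowest gene density of the 23 chromosomes 1 to 22 and X, with 2.96, 3.36 and 4.05 genes per Mb. Chromosome X had 5.43 genes per Mb and ranked 9 from the lowest, above chromosomes 2, 3, 5, 8 and 21. The label therefore held for chromosomes 4, 13 and 18 and did not set chromosome X apart from other chromosomes.

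Peaks were sparse on all 4 chromosomes in both kinds of list. Density was taken as peaks per Mb up to the end of the last peak of any list, which gives lengths of 191, 114, 77.8 and 154 Mb for chromosomes 4, 13, 18 and X. Together the 4 chromosomes make up 17.7% of the length of the 23 chromosomes. They held 6.38% (95% Wilson interval 5.74 to 7.10%), 5.62% (5.01 to 6.30%) and 5.26% (4.69 to 5.90%) of the peaks of SRA lists 1, 2 and 3. In LacZ lists 1, 2 and 3 they held 7.17% (6.26 to 8.22%), 6.34% (5.47 to 7.34%) and 3.79% (2.13 to 6.66%), where all intervals cover counting error only. Every list thus held a smaller share of its peaks on these chromosomes than their share of length.

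Within each list, density on the 4 chromosomes was compared with density on the other 19 chromosomes. SRA lists 1, 2 and 3 had 0.592, 0.518 and 0.508 peaks per Mb on the 4 chromosomes and 1.86, 1.86 and 1.96 peaks per Mb on the others. The density was 3.13-, 3.59- and 3.85-fold lower on the 4 chromosomes in these lists. LacZ lists 1, 2 and 3 had 0.358, 0.309 and 0.0205 peaks per Mb on the 4 chromosomes and 0.992, 0.978 and 0.112 on the others, a density 2.77-, 3.16- and 5.45-fold lower. As a ratio of the densities, this came to 0.286 on average over the SRA lists and 0.287 ± 0.0921 (SD, n = 3) over the LacZ lists. The mean SRA ratio lay within this spread, which rests on LacZ list 3 with its 11 peaks and a ratio of 0.184. LacZ lists 1 and 2 had ratios of 0.361 and 0.316 (mean 0.338), both above the SRA mean, and the SRA lists had 0.319, 0.279 and 0.259, of which the first lay between them.

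The share of peaks on the 4 chromosomes averaged 5.76% in SRA lists and 5.77 ± 1.76% (SD, n = 3) in LacZ lists. The SRA values lay inside the range of the LacZ values, and the exact permutation test over lists, two-sided, gave p = 1, where 3 lists against 3 cannot give a p below 0.1. Without LacZ list 3 the LacZ share averaged 6.76% (exact permutation p = 0.3). With the SRA lists counted as 1 sample, p was again 1 in the exact permutation test, for which the smallest p is 0.25.

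**Figure D1:**
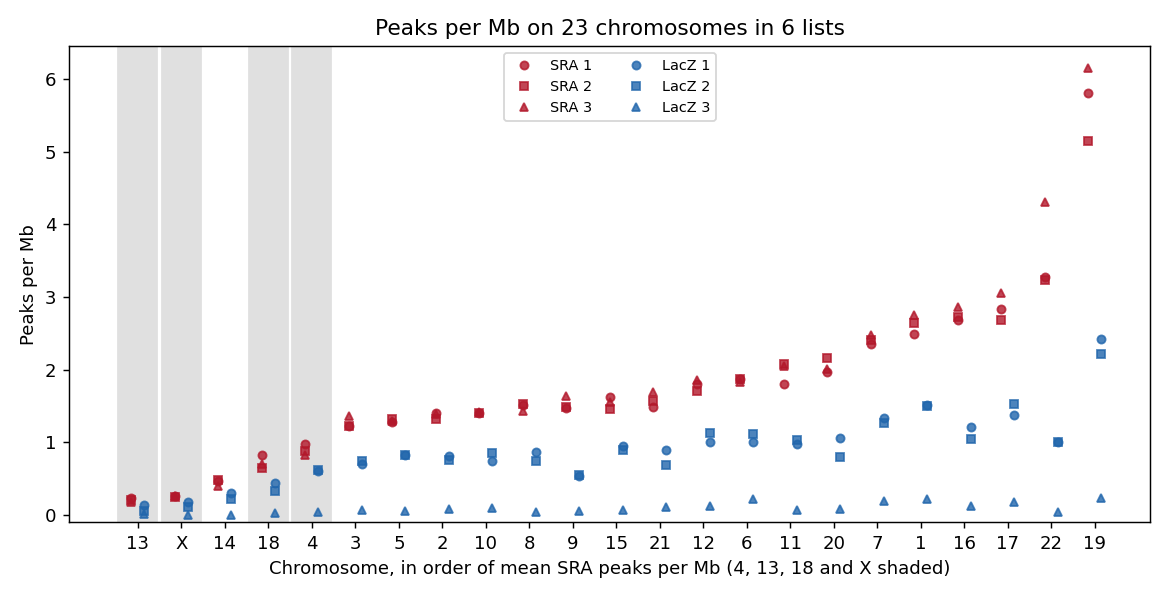
Peaks per Mb (vertical axis) on each of 23 chromosomes (horizontal axis, in order of mean SRA density), with 1 point for each of the 3 SRA lists (red) and 3 LacZ lists (blue) and with chromosomes 4, 13, 18 and X shaded. The 4 chromosomes and chromosome 14 form the low end, from 0.202 SRA peaks per Mb on chromosome 13 to 0.892 on chromosome 4.

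The 4 chromosomes were not alike. On chromosome 13 the SRA lists had 0.228, 0.202 and 0.175 peaks per Mb, and LacZ lists 1, 2 and 3 had 0.131, 0.0526 and 0.00876. Chromosome X followed, with 0.266, 0.247 and 0.266 peaks per Mb in the SRA lists and 0.182, 0.104 and 0 in the LacZ lists. These were the lowest densities of the 23 chromosomes, both for the mean of the SRA lists and for the mean of LacZ lists 1 and 2. Chromosome 14, with a mean of 0.446 SRA peaks per Mb, came next, before chromosome 18 with 0.823, 0.643 and 0.707 and chromosome 4 with 0.979, 0.874 and 0.822 peaks per Mb. On chromosomes 18 and 4, LacZ lists 1, 2 and 3 had 0.437, 0.334 and 0.0257 and 0.602, 0.618 and 0.0419 peaks per Mb. The median of the other 19 chromosomes was 1.79 peaks per Mb for SRA and 0.930 for LacZ lists 1 and 2.

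Gene content did not order these chromosomes in the same way as peaks did. For each 100 protein-coding genes, chromosome X had 4.72 SRA peaks (mean of 3 lists), chromosome 13 had 6.80 and chromosome 14 had 7.82, the lowest values of the 23 chromosomes. Chromosomes 18 and 4 had 20.9 and 22.1 SRA peaks for each 100 genes, near the values of chromosomes 11 and 17 (20.4 and 19.8) and not far below the median of 25.9 over the other 19 chromosomes. The mean of LacZ lists 1 and 2 was lowest on the same chromosomes, with 2.59 peaks for each 100 genes on chromosome X, 3.11 on chromosome 13 and 4.63 on chromosome 14, against 11.1 on chromosome 18 and 15.1 on chromosome 4. Relative to genes, chromosomes X and 13 were thus low with both probe sets, whereas chromosomes 4 and 18 were low mainly relative to length. None of these values was adjusted for the copy number of the chromosomes in K562, whose part was not tested.

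Across the 23 chromosomes, peaks per Mb and genes per Mb were correlated with r = 0.886 (Pearson) and rho = 0.849 (Spearman) for SRA and with r = 0.834 and rho = 0.788 for LacZ lists 1 and 2. These describe chromosomes that share the same lists and are not independent replicates. The correlation did not depend on the 4 chromosomes, since r over the other 19 was 0.891 for SRA and 0.851 for LacZ. Without chromosome 19, the densest in both, r was 0.761 and 0.707.

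**Figure D2:**
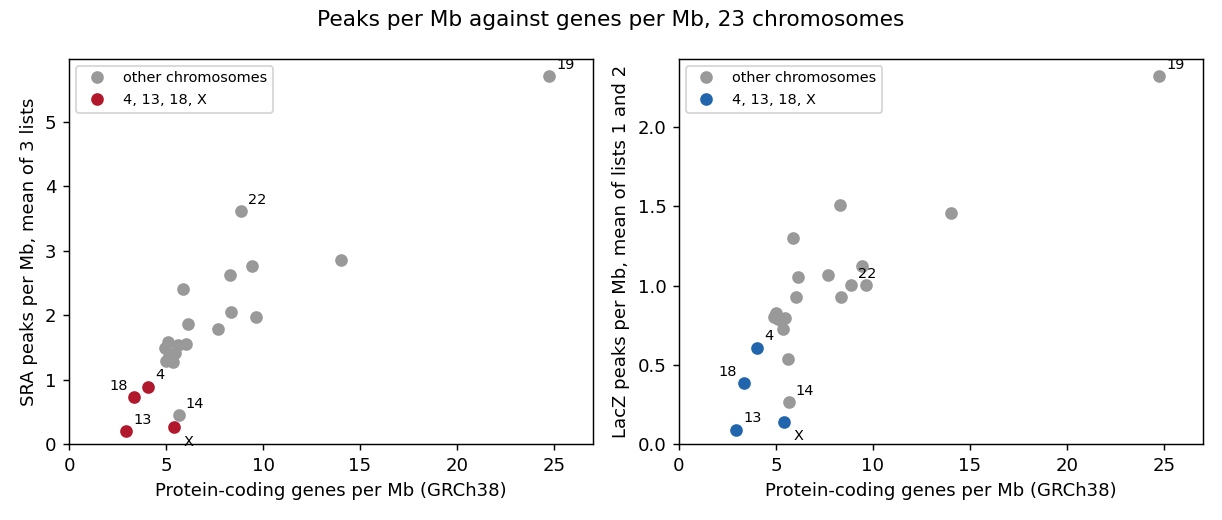
Peaks per Mb (vertical axes, mean of 3 SRA lists at left and of LacZ lists 1 and 2 at right) against protein-coding genes per Mb of GRCh38 (horizontal axes), with 1 point per chromosome. Chromosomes 13, 18 and 4 lie at the low end of both axes, and chromosome X lies beside chromosome 14, below other chromosomes of like gene density.

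The share of a list's peaks on each chromosome was then compared between SRA and LacZ lists. Over all 23 chromosomes, all SRA shares lay above all LacZ shares on 4 (17.4%) and below them on 2 (8.7%). None of chromosomes 4, 13, 18 and X was among them. Chromosome 4 accounted for 3.75, 3.38 and 3.03% of the peaks in SRA lists 1, 2 and 3, while LacZ lists 1, 2 and 3 held 4.30, 4.51 and 2.76% (3.86 ± 0.955%, SD, n = 3). LacZ lists 1 and 2 were above every SRA list, and LacZ list 3, with 8 peaks there (Wilson interval 1.40 to 5.35%), was below them. The exact permutation p, two-sided, was 0.5 with all lists (0.767 after Benjamini-Hochberg adjustment over 23 chromosomes). Without LacZ list 3, the SRA mean was lower by 1.02 percentage points (3.39 against 4.40%; exact permutation p = 0.1, the smallest that 3 lists against 2 can give). With the SRA lists counted as 1 sample, which was chosen for single chromosomes after seeing the data, p was 1 with all LacZ lists and 0.333 without LacZ list 3 in exact permutation tests, again the smallest possible.

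With all lists, chromosomes 13, 18 and X showed no separation of the groups. The shares on chromosome 13 were 0.522, 0.465 and 0.386% in the SRA lists and 0.561, 0.229 and 0.345% in the LacZ lists, where LacZ list 3 held 1 peak. On chromosome 18 they were 1.28, 1.01 and 1.06% against 1.27, 0.994 and 0.690%. On chromosome X they were 0.823, 0.768 and 0.790% against 1.05, 0.611 and 0%. The 0 of 290 peaks in LacZ list 3 allows a share on chromosome X of up to 1.03%, taken as 3 counts of the list (the Wilson limit is 1.31%), which is above every SRA share, so a difference was not detectable at this number of peaks. Exact permutation p values, two-sided, were 0.5, 0.4 and 0.7 for chromosomes 13, 18 and X, and 0.767, 0.708 and 0.894 after adjustment over 23 chromosomes. With the SRA lists counted as 1 sample, the exact permutation p was 0.75 for each of them, where the smallest possible is 0.25. Without LacZ list 1, the SRA mean was higher than the LacZ mean by 0.277 percentage points on chromosome 18 and by 0.488 on chromosome X, with no overlap of the groups (exact permutation p = 0.1 for both, and 0.667 with the SRA lists as 1 sample). On chromosome 13 the SRA shares were also all above those of LacZ lists 2 and 3, by 0.170 percentage points on average. The exact permutation p was 0.2, and 0.667 with the SRA lists as 1 sample. Whether the groups separated on any of the 4 chromosomes thus depended on which LacZ list was left out.

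The ratio of SRA to LacZ density made chromosome 4 the low end of all chromosomes. Mean SRA density was 1.46 times the mean of LacZ lists 1 and 2 on chromosome 4, the smallest ratio of the 23 chromosomes, followed by 1.57 on chromosome 5. It was 1.82 on chromosome X, 1.88 on chromosome 18 and 2.19 on chromosome 13, against a median of 1.85 and a range of 1.57 to 3.60 over the other 19 chromosomes. Chromosomes 18 and X thus lay near this median.

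To see how peaks were spread along the chromosomes, they were counted in bins of 5 Mb by their middle base, with 39, 23, 16 and 31 bins on chromosomes 4, 13, 18 and X. The median bin of chromosome 4 held 4, 4 and 3 peaks in SRA lists 1, 2 and 3 and 3, 3 and 0 in LacZ lists 1, 2 and 3. On chromosome 18 it held 3, 2.5 and 3.5 SRA peaks, on chromosome X 1 in each SRA list, and on chromosome 13 it was 0 in every list. Single bins thus rest on few peaks, and the last bin of each chromosome runs past its last peak.

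The fullest bin of the 4 chromosomes was the first of chromosome 4, from 0 to 5 Mb. It held 27, 27 and 29 peaks in the SRA lists, or 5.4, 5.4 and 5.8 peaks per Mb, and 4, 4 and 2 peaks in the LacZ lists. The rest of chromosome 4 had 0.860, 0.753 and 0.688 SRA peaks per Mb, so the first bin was 6.28-, 7.18- and 8.43-fold denser. In LacZ lists 1, 2 and 3 it was 1.34-, 1.31- and 12.4-fold denser than the rest, where the value of list 3 rests on 2 of 8 peaks. By summed SRA peaks this bin ranked 27 of the 618 bins of the 23 chromosomes, and by summed LacZ peaks it ranked 201. The bin was chosen by its SRA peaks, so its SRA fold values and ranks, and their contrast with LacZ, do not test crowding there. Its SRA peaks were spread over the whole bin, with 5 to 9 per list in each Mb from 1 to 5 Mb and 2, 2 and 4 in the Mb before. They fell on 41 distinct positions, of which 15 were in all 3 SRA lists.

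As a share of the list, this bin held 0.542, 0.546 and 0.559% of SRA peaks and 0.149, 0.153 and 0.690% of LacZ peaks. The SRA lists were above LacZ lists 1 and 2 but below LacZ list 3, where the share rests on 2 peaks (Wilson interval 0.189 to 2.48%). Outside the bin, chromosome 4 held 3.21, 2.83 and 2.47% of SRA peaks against 4.15, 4.36 and 2.07% of LacZ peaks. Relative to LacZ lists 1 and 2, the SRA shares were thus higher in the first bin and lower outside it. Because the bin was chosen by its SRA peaks, this does not test where the lower share of chromosome 4 arose.

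Other full bins of chromosome 4 held fewer peaks. The bin from 85 to 90 Mb held 8, 10 and 7 SRA peaks and 3, 10 and 0 LacZ peaks. Equal in summed SRA peaks were the bin from 55 to 60 Mb, with 6, 8 and 8 SRA and 6, 4 and 1 LacZ peaks, and that from 110 to 115 Mb, with 8, 7 and 7 SRA and 2, 2 and 0 LacZ peaks. Only in the last of these bins, all chosen by their SRA peaks, did all SRA shares exceed all LacZ shares. For LacZ the fullest bin of chromosome 4 was another, from 70 to 75 Mb, with 5, 9 and 2 LacZ peaks and 4, 5 and 4 SRA peaks.

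On chromosome 18 the 3 fullest bins were the first of the chromosome. From 0 to 5 Mb there were 16, 12 and 10 SRA peaks against 9, 2 and 0 LacZ peaks. From 5 to 10 Mb there were 8, 7 and 8 against 6, 6 and 1, and from 10 to 15 Mb 7, 8 and 7 against 3, 1 and 0. The first 15 Mb held 48.4, 54.0 and 45.5% of the SRA peaks of chromosome 18 in lists 1, 2 and 3, and 52.9, 34.6 and 50% (1 of 2 peaks) of its peaks in the LacZ lists. This window was chosen by its SRA peaks, so the SRA shares do not test crowding at the start of the chromosome. Among LacZ lists, list 1 had 18 of 34 peaks there and list 2 had 9 of 26. LacZ list 2 also had 6 peaks from 20 to 25 Mb, as many as from 5 to 10 Mb.

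On chromosome 13 the fullest bins, from 40 to 45 Mb and from 75 to 80 Mb, each held 4 peaks in every SRA list and none in any LacZ list. These bins, and those of chromosome X below, were chosen by their SRA peaks, so their contrast with LacZ is not a test. No LacZ list had a peak in 14 of the 23 bins of chromosome 13, and the SRA lists count as 1 sample. The 4 peaks of the bin from 75 to 80 Mb were at the same 4 positions in all 3 SRA lists, and the bin from 40 to 45 Mb had 5 positions, 3 of them in all lists. The next bin, from 90 to 95 Mb, held 3, 4 and 2 SRA peaks and 6, 1 and 0 LacZ peaks, at 6 SRA positions of which none was in all lists. On chromosome X the last bin, from 150 to 155 Mb, was the fullest, with 4, 5 and 6 SRA peaks and 2, 1 and 0 LacZ peaks. The bins from 45 to 50 Mb and from 115 to 120 Mb followed, with 3, 2 and 4 and with 5, 2 and 2 SRA peaks, against 3, 3 and 0 and 1, 0 and 0 LacZ peaks.

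**Figure D3:**
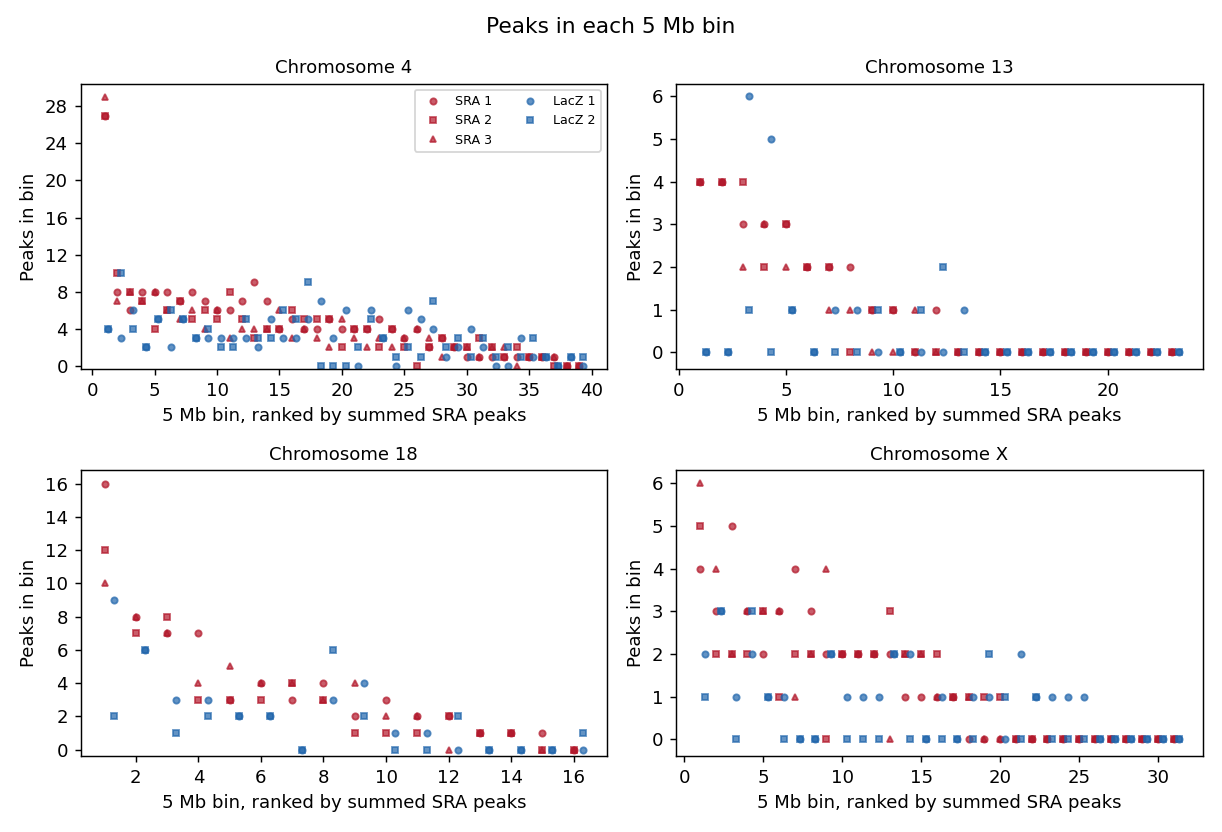
Peaks in each 5 Mb bin (vertical axis) of chromosomes 4, 13, 18 and X, with bins ranked by SRA peaks summed over the lists (horizontal axis), for the 3 SRA lists (red) and LacZ lists 1 and 2 (blue). On chromosome 4 the first-ranked bin holds 27 to 29 SRA peaks and 4 LacZ peaks in each list shown, and no other bin of the 4 chromosomes exceeds 16.

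Over the 109 bins, 19 had SRA shares that all exceeded the LacZ shares, against 12.8% of all 618 bins, and 4 had SRA shares that were all smaller, against 6.96% of all bins. Without LacZ list 3, in which 100 of the 109 bins were empty, these numbers were 21 and 19, against 18.4 and 19.1% of all bins. Without that list the bins of the 4 chromosomes, at 19.3 and 17.4%, were near all bins. With all lists, larger SRA shares were found in 17.4% of these bins and smaller ones in 3.67%. Differences from the values over all bins were not tested. By chromosome, bins with larger and with smaller SRA shares numbered 2 and 3 on chromosome 4, 4 and 0 on chromosome 13, 3 and 1 on chromosome 18 and 10 and 0 on chromosome X. Without LacZ list 3 they numbered 3 and 12, 4 and 0, 4 and 2 and 10 and 5 on these chromosomes, so the number of bins with smaller shares depended on that list. Of the 10 bins of chromosome X with larger SRA shares, 8 had no peak in LacZ list 2, and LacZ list 3 had no peak on this chromosome at all, so these comparisons rest on few peaks. Smaller SRA shares without LacZ list 3 were most frequent on chromosome 4, in 30.8% of its bins.

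Empty bins were more frequent over the 4 chromosomes together than elsewhere. No SRA list had a peak in 25 of 109 bins (22.9%, Wilson interval 16.0 to 31.7%), against 41 of 509 bins (8.06%, 5.99 to 10.7%) on the other 19 chromosomes. No LacZ list had a peak in 28 of 109 bins (25.7%, 18.4 to 34.6%), against 44 of 509 (8.64%, 6.50 to 11.4%). This share depended on LacZ list 1, without which it was 49 of 109 bins (44.95%) against 71 of 509 (13.9%). The bins before the first peak of any list, 3 on chromosome 13 and 12 on other chromosomes, include the short arm of chromosome 13, which has no sequence in hg19 to which a read could align. Without them, an alternative chosen after seeing the data, SRA lists were empty in 22 of 106 bins (20.8%) against 29 of 497 (5.84%), and LacZ lists in 25 of 106 (23.6%) against 32 of 497 (6.44%). Empty bins thus remained more frequent over the 4 chromosomes together, though not on each of them.

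Both groups were empty in 16 of the 109 bins. The SRA-empty bins were 11 of 23 on chromosome 13, 11 of 31 on chromosome X, 2 of 39 on chromosome 4 and 1 of 16 on chromosome 18. These are 47.8 and 35.5% on chromosomes 13 and X but 5.13 and 6.25% on chromosomes 4 and 18, so chromosomes 13 and X alone exceeded the 8.06% of the other 19 chromosomes. In 9 of the 25 a LacZ list had a peak, with 12 LacZ peaks in all, and 12 bins with an SRA peak had none in any LacZ list. LacZ-empty bins were 14 of 23 on chromosome 13 (60.9%), 10 of 31 on chromosome X (32.3%) and 1 of 39 on chromosome 4 (2.56%). On chromosome 18 they were 3 of 16 (18.8%, Wilson interval 6.59 to 43.0%), above the 8.64% of the other 19 chromosomes but on few bins.

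On chromosome 13 the bins without an SRA peak ran from 0 to 15, 20 to 25, 35 to 40, 55 to 60, 65 to 75, 80 to 90 and 105 to 110 Mb. LacZ lists had no peak in these bins either, apart from 1 peak of LacZ list 1 between 35 and 40 Mb. The first SRA peak of the chromosome started at base 19645792, and the first LacZ peak at base 27832342. The longest stretch between SRA peaks ran over 14.6 Mb, from 60612663 to 75230556, and also held no LacZ peak. The longest stretch between LacZ peaks, 30.6 Mb from 60422424 to 90978108, held 16 SRA peaks counted over the 3 lists.

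On chromosome X the SRA-empty bins ran from 20 to 30, 35 to 40, 50 to 55, 70 to 100 and 145 to 150 Mb. The run from 70 to 100 Mb was the longest of the 4 chromosomes, with 6 bins, in which LacZ list 1 had 2 peaks and LacZ list 2 had 1. Measured between peaks, the SRA lists had none over 34.8 Mb, from 65319311 to 100080003. LacZ lists had a similar stretch of 31.6 Mb, from 77226595 to 108779105, which held 7 SRA peaks. Both groups were therefore empty between bases 77226595 and 100080003.

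Chromosomes 4 and 18 had few bins without an SRA peak. On chromosome 4 no SRA list had a peak from 30 to 35 Mb, where LacZ lists 1 and 2 each had 1, or from 165 to 170 Mb, where LacZ list 2 had 1. On chromosome 18 the bin from 70 to 75 Mb was without an SRA peak and held 1 peak of LacZ list 2. The longest stretches between SRA peaks were 8.14 Mb on chromosome 4 and 9.72 Mb on chromosome 18.

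Peaks lay farther apart on these chromosomes within a list, as their lower density implies, so this is not a separate result. The median distance to the nearest peak of the same list was 222, 253 and 257 kb in SRA lists 1, 2 and 3, against 86.8, 86.3 and 70.4 kb on the other 19 chromosomes. A neighbour within 100 kb was present for 34.3, 28.8 and 28.6% of SRA peaks, against 53.6, 54.1 and 57.9% elsewhere. In the LacZ lists it was present for 10.4, 17.5 and 0% of peaks, against 33.5, 32.2 and 7.19% elsewhere. Pairs within 1 kb were rare, with 2, 4 and 4 SRA peaks having such a neighbour and no LacZ peak having one.

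The 869 SRA peaks fell on 467 distinct positions, of which 198 were in 1 list, 136 in 2 and 133 in all 3 lists. The share in all 3 lists was 28.5% (Wilson interval 24.6 to 32.7%), against 21.1% (20.2 to 22%) on the other 19 chromosomes. Chromosome 13 had the highest share of all 23 chromosomes, 14 of 31 positions (45.2%, 29.2 to 62.2%). Chromosome 14 came next (33.8%), then chromosomes X with 19 of 59 (32.2%), 18 with 26 of 95 (27.4%) and 4 with 74 of 282 (26.2%). The other 19 chromosomes ranged from 17.6 to 33.8%, so chromosomes 4, 18 and X lay inside that range. Because the SRA lists share peaks and count as 1 sample, these shares describe the lists and not the reproducibility of separate samples.

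Peaks held by a single SRA list numbered 86, 55 and 57 in lists 1, 2 and 3. SRA list 1 had the most of them on chromosome 4, 55 against 37 and 35, and on chromosome 18, 23 against 11 and 13. Scores rose with the number of lists that held a peak, with a median of 42.0 for peaks in 1 list, 43.2 in 2 and 44.8 in 3. The score is the value the authors' lists give each peak under the heading −log10 of the p-value. No peak of any list has a score below 40, so its scale is not settled. A lowest value of 40 is also what −10 times the log10 of a limit of 0.0001 on the p-value gives, in which case the printed scores would be 10 times the unit of the heading. Scores were used here to order peaks, and their means, SDs and medians describe the lists without a unit.

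**Figure D4:**
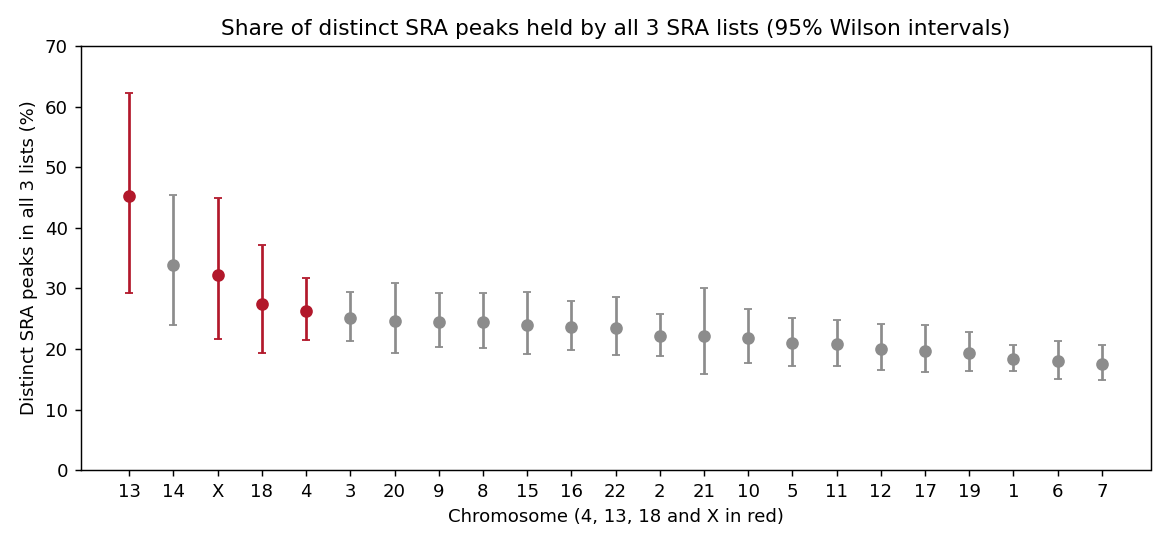
Share of distinct SRA peaks that are in all 3 SRA lists (vertical axis, percent) on each of 23 chromosomes (horizontal axis), with 95% Wilson intervals that cover counting error only and with chromosomes 4, 13, 18 and X in red. Chromosome 13 has the highest share, 45.2%, with the widest interval, as it holds 31 distinct peaks.

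Overlap between the probe sets was close to none. Of the 467 distinct SRA positions, 1 shared at least 1 bp with a LacZ peak (0.214%, Wilson interval 0.0378 to 1.20%), against 72 of 8126 (0.886%, 0.704 to 1.11%) on the other 19 chromosomes. It lay on chromosome 4 from 2379171 to 2379328 in SRA list 1, with a score of 41.5, and met a peak of LacZ list 1 from 2379125 to 2379297, with a score of 44.0. Of the 72 positions elsewhere, 16 were on chromosome 22 (5.21% of its positions), and chromosomes 8, 14 and 20 had none. Whether LacZ samples served as control for the SRA lists is not given, so the low overlap does not test how the probe sets differ. LacZ lists overlapped each other in 5 pairs of peaks, 4 on chromosome 4 and 1 on chromosome X, and no such pair matched in both ends. In 1 of them, at 190802346 to 190802723 of chromosome 4, the score was 76.1 in LacZ list 1 and 43.3 in LacZ list 2.

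The strongest SRA region of the 4 chromosomes was on chromosome 4 from 40297079 to 40297659. Its scores were 147, 192 and 219 in SRA lists 1, 2 and 3, a mean of 186 ± 36.1 (SD over lists that count as 1 sample). With 581 bp it was also the widest SRA peak on these chromosomes, where the median width was 148 to 150 bp. Of the 1845 regions of chromosomes 1 to 22 and X that were in all 3 SRA lists, it ranked 4 by mean score. The nearest other SRA peak was 38.4 kb away, in SRA list 1 only and with a score of 41.0, and the nearest LacZ peak was 212 kb away.

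The next regions lay on chromosomes 18 and 4. On chromosome 18 the region from 543418 to 543604 had scores of 94.7, 73.3 and 63.3 (mean 77.1, rank 26 of 1845). On chromosome 4 the region from 100857183 to 100857388 had 75.5, 63.3 and 65.6 (mean 68.1), with a LacZ peak 15 kb away, and that from 81482757 to 81482912 had 48.0, 66.3 and 68.2 (mean 60.9). These 4 regions were the only ones of the 133 in all 3 lists with a mean score over 60, and the median of the 133 was 44.9. The first 3 of them were among the 100 highest of the 1845. The 133 regions made up 7.21% of these 1845, so 3 of 100 was below their share.

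Ranks 5 to 10 were close to each other, with mean scores from 57.4 down to 55.5. They were 8940446 to 8940613 of chromosome 18 (mean 57.4), 184305212 to 184305440 of chromosome 4 (57.2), 139344634 to 139344897 of chromosome 4 (57.1), 49289515 to 49289673 of chromosome 4 (56.0), 24783129 to 24783436 of chromosome 18 (56.0) and 2027981 to 2028179 of chromosome 4 (55.5). Of these, the region at 2027981 lies in the full first bin of chromosome 4 and had nearly equal scores of 55.4, 56.3 and 54.7. The region at 49289515 had a neighbour 55 bp away, from 49289287 to 49289459, which was in SRA lists 2 and 3 with scores of 69.4 and 53.1 but not in list 1. The region at 139344634 had a weaker neighbour, also in all 3 lists, 17.1 kb away, with a mean score of 48.0.

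Chromosomes 13 and X had no region among the 10 strongest. On chromosome X the highest were 135170800 to 135170929, with scores of 49.4, 56.6 and 56.6 (mean 54.2), 118756012 to 118756131, with 51.5 in every list, and 113195228 to 113195390, with 55.0, 44.2 and 51.5. On chromosome 13 they were 19645792 to 19645912, with 51.2 in every list, 28972740 to 28972899, with 60.6, 43.6 and 48.2, and 45773971 to 45774086, with 48.4, 52.8 and 48.6. The region at 19645792 is also the first SRA peak of chromosome 13, and 903 bp on lay another position in all 3 lists, with a score of 40.9 in each. Equal scores in all lists were found at 49 of the 133 regions. Genes at these positions and their sequence were not analysed here.

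**Figure D5:**
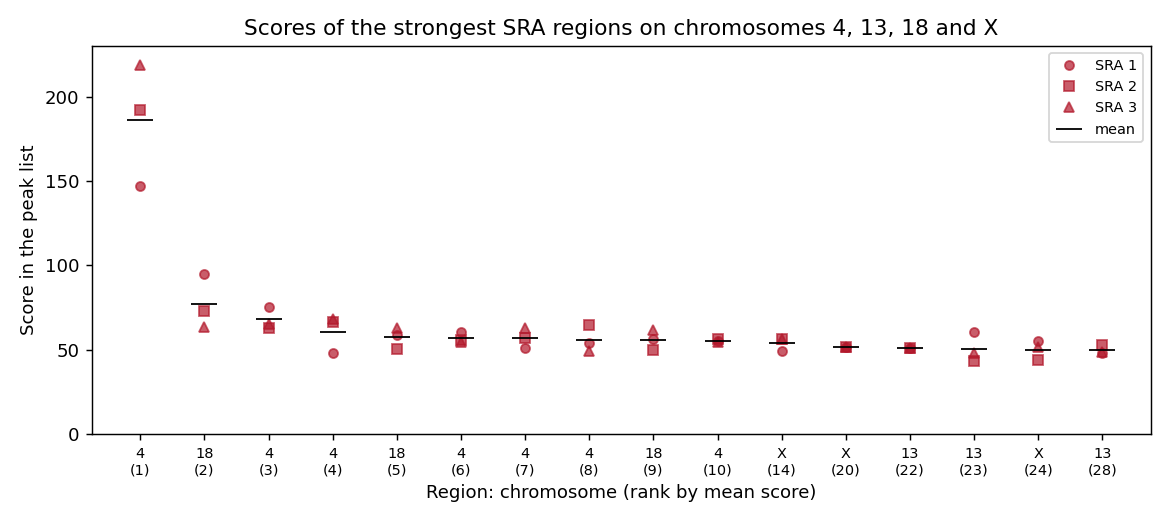
Score (vertical axis, as the peak lists give it) in SRA lists 1, 2 and 3 (points) and its mean (bar) for the 10 regions with the highest mean score and the 3 highest of each chromosome, labelled by chromosome and rank. The region of chromosome 4 at rank 1 has scores of 147 to 219, and all others are below 95.

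The highest LacZ peaks lay apart from the strongest SRA regions. The highest LacZ peaks of chromosome 13 were 99435192 to 99435342 in list 1 (score 82.4) and 103608180 to 103608341 in list 2 (77.7), at ranks 9 and 26 of these lists. On chromosome X they were 77226462 to 77226594 (65.7) and 135831071 to 135831256 (60.4), both in list 1. On chromosome 4 they were 190802346 to 190802723 (76.1) and 666939 to 667096 (71.8), and on chromosome 18 28109484 to 28109676 (67.3) and 2804874 to 2805190 (60.9), all in list 1. None of these 8 peaks overlapped an SRA peak, and the closest, at 190802346, was 4.75 kb from one. Scores of different lists were not shown to be on a comparable scale, so these values rank peaks within their lists.

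Among all peaks of a list, those on the 4 chromosomes were not stronger than others. Of SRA peaks there, 41.5% (Wilson interval 36.2 to 47.0%), 46.0% (40.3 to 51.9%) and 48.7% (42.8 to 54.6%) reached the median score of their list, against 50.6, 50.3 and 50.1% of peaks elsewhere. For SRA list 1 the interval lay below the value elsewhere, and for SRA lists 2 and 3 it included it. In LacZ lists 1, 2 and 3 the shares were 50.5, 44.0 and 54.5%, against 50, 50.6 and 49.8% elsewhere.

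A limit to the strongest peaks changed the shares. With the 290 highest scores taken from every list, the number in LacZ list 3, the 4 chromosomes held 9, 8 and 9 peaks of the SRA lists (3.10, 2.76 and 3.10%) and 21, 15 and 11 peaks of the LacZ lists (7.24, 5.17 and 3.79%). Every SRA list was below every LacZ list, by 2.41 percentage points on average (2.99 against 5.40%; exact permutation test, two-sided, p = 0.1, the smallest for 3 lists against 3). With the less strict limit of the median score of each list, the SRA mean was 5.20% and the LacZ mean 5.65%, and the groups overlapped (exact permutation p = 0.7). None of the SRA peaks among the 290 highest lay on chromosome X, where LacZ lists 1, 2 and 3 had 3, 0 and 0, and chromosome 13 held 1, 0 and 0 SRA and 1, 1 and 1 LacZ peaks. The lowest score taken was 58.0 to 59.1 in the SRA lists, 53.5 and 53.0 in LacZ lists 1 and 2, and 40 in LacZ list 3, which enters with its whole list. The same number of peaks thus reached to different depths of lists of different length, and the difference cannot be read as one between probe sets. As the SRA lists count as 1 sample, this difference has no replicate check on the SRA side.

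Wide SRA peaks were not seen on these chromosomes. No SRA peak there was over 1000 bp wide, although 91, 94 and 114 peaks (1.83, 1.90 and 2.20%) of the whole SRA lists were. LacZ lists 1 and 2 also had none there, with 16 and 11 in the whole lists. In LacZ list 3, 4 of 11 peaks on the 4 chromosomes were over 1000 bp, against 174 of 290 (60%) in the whole list. In all, the SRA peaks on the 4 chromosomes covered 49.0, 42.8 and 42.7 kb and the LacZ peaks 32.9, 26.1 and 10.8 kb.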

How the data were processed

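ChIRP-seq peaks of K562 chromatin were taken from 1 deposited list for each of 3 SRA and 3 LacZ samples. The authors aligned reads to hg19 and called peaks with MACS, and the submitters' processing notes also name CASAVA 1.8.2 and deepTools. The MACS version, the control of each list and any pooling are not given in the sources used here. Each deposited peak carries a score, headed −log10 of the p-value, which starts at 40. Positions are given in hg19, counted from base 1. Members and lists were chosen with earlier results of these data known. Regions named are the 10 with the highest mean score among SRA regions in all 3 lists and the 3 highest of each chromosome, the 2 highest LacZ peaks of each chromosome, the 3 bins with most SRA peaks, and all runs of bins with no SRA peak. Overlap required at least 1 bp in common. Shares were compared by exact permutation tests, two-sided, with Benjamini-Hochberg adjustment over 23 chromosomes. Genes were counted in RefSeq for GRCh38.p14, with no position carried between builds. Counting was tested on simulated lists. Scripts ran in Python 3.11.15 with scipy 1.17.1, numpy 2.4.6, pandas 2.3.3 and, for plots, matplotlib 3.10.9.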

Additional observations from a re-analysis of the deposited data

How the results depend on the processing

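The difference in share of peaks on the 4 chromosomes, SRA minus LacZ, was −0.0148 percentage points, and its sign was not stable. Joining peaks up to 500 bp apart gave 0.0168, and leaving out single lists gave −1.003 to 0.687. Dropping peaks over 1000 bp wide gave −0.670 (exact permutation p = 0.3). It raised the share in LacZ list 3 from 3.79 to 6.03%, with 7 of 116 peaks. A block for the replicate number, pairing SRA and LacZ lists, gave −0.0148 (exact sign-flip permutation p = 1). Correlations of deviations over 618 bins were 0.0294, −0.0138 and −0.0288 for same-numbered lists, all under the limit of 0.1, so the numbers were not taken to pair the samples. Leaving out each list, an alternative chosen after seeing the data, gave −0.0134 to 0.277 on chromosome 18 and −0.0350 to 0.488 on chromosome X, both negative only without LacZ replicate 3. It gave −1.02 to −0.142 on chromosome 4, from −0.469, and 0.00481 to 0.170 on chromosome 13, from 0.0793, so the sign was kept but the size was not.

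The ratio of densities fell from 0.286 to 0.152 for SRA when every list was limited to its 290 highest peaks, where the LacZ ratio was 0.270. All other alternatives moved it by less than its interval or SD. Bins without an SRA peak made up 61.4% with bins of 1 Mb, 10.7% with 10 Mb and 37.6% when peaks below the median score were dropped, and bins without a LacZ peak 64.9, 12.5 and 40.4%. With each LacZ list left out the LacZ share ranged from 26.6 to 45%, highest without LacZ replicate 1. Bins with a smaller share in every SRA list rose from 4 to 19 without LacZ replicate 3, chosen after seeing the data. The 133 of 467 positions in all SRA lists and the strongest region did not move beyond their interval or SD.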
